A study of Mus musculus with 12 samples.

Results

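The genes described here code for enzymes that make, use or sense the use of NAD in bone marrow-derived macrophages (BMDMs), the macrophages that grow from mouse bone marrow cells in culture. They are *Cd38*, *Bst1*, *Nampt*, *Parp1*, *Parp8*, *Parp9*, *Parp10*, *Parp12*, *Parp14* and *Dtx3l*, chosen by name with earlier results of these data known. They make up 10 of the 55487 gene models in the table of normalized counts. RNA was sequenced from 4 groups of 3 libraries each, 12 libraries in all. BMDMs of C57BL/6 wild-type mice (WT) and of *Rasgef1b*-fl/fl;CMVcre mice (KO) were left untreated or received LPS at 100 ng/ml for 4 h, and the donor mice were 8 to 12 weeks old. The CMV-driven Cre acts in the whole animal and not in macrophages alone, and the WT mice came from a separate colony, so that genotype and colony cannot be told apart. A normalized count is the number of reads of a gene divided by the size factor of its library, which follows more than depth. Each read stood for 0.660 to 0.855 normalized counts in untreated and 1.21 to 1.41 in LPS-treated libraries. The normalized totals were 16361938 to 17384975 and 25980274 to 28238994. Changes after LPS are given on this scale and would differ as shares of reads.

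NAD is a cofactor of redox reactions and also the substrate of enzymes that split it into nicotinamide and ADP-ribose. CD38 and its relative BST1 (CD157) are cell-surface enzymes that release ADP-ribose and cyclic ADP-ribose, a calcium-mobilising messenger, and NAMPT remakes NAD from nicotinamide in the rate-limiting step of the salvage pathway. The PARP enzymes transfer ADP-ribose to proteins or nucleic acids. PARP1 builds chains of it at DNA breaks, whereas PARP8, PARP10, PARP12 and PARP14 are known as enzymes that add single units. PARP9 acts in a complex with the ubiquitin ligase DTX3L, and *Parp9*, *Parp10*, *Parp12*, *Parp14* and *Dtx3l* are known as interferon-stimulated genes in many cell types.

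The genes sit on several chromosomes of GRCm38, and some are neighbours. *Cd38* (ENSMUSG00000029084) lies on the forward strand of chromosome 5 from 43868553 to 43912375, and its relative *Bst1* lies 24566 nt away on the same strand. *Rasgef1b* is on the same chromosome, 55.3 Mb from *Cd38*. *Parp9* and *Dtx3l* lie head to head on chromosome 16, with start sites 681 nt apart. Their exons share 458 nt on opposite strands, which is 9.40% of the exonic length of *Parp9* and 8% of that of *Dtx3l*, and *Parp14* lies 54966 nt from *Dtx3l*. Whether counting used strand is not given in the sources used here, so reads in the shared stretch cannot be assigned to either gene. *Parp10* likewise shares 205 nt with *Plec*, or 4.80% of its exonic length.

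RefSeq promoter windows of the 300 bases from 250 before to 50 after the start were matched for 6 of the 10 genes, namely *Cd38*, *Dtx3l*, *Nampt*, *Parp1*, *Parp8* and *Parp12*. Those of *Parp1*, at chr1:180568641-180568890 on the forward strand, and of *Parp12*, at chr6:39118350-39118599 on the reverse strand of GRCm38.p6, are shown because these genes moved in opposite directions after LPS. Only the 250 bases before the start are given, 5′ to 3′, and capitals mark the 30 bases next to it.
Parp1: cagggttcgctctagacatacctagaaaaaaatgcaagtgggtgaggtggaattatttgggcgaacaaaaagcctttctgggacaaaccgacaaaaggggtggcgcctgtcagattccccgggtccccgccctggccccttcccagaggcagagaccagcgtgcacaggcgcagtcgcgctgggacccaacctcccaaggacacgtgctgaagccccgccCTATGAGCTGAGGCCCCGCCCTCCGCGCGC
Parp12: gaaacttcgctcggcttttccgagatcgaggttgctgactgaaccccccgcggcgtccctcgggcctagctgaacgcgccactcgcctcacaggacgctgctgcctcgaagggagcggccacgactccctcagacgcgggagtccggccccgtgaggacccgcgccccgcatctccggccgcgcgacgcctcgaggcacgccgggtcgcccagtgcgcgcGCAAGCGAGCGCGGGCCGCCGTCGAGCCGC
G and C make up 61.6% of the *Parp1* stretch and 73.6% of the *Parp12* stretch. An exon of the antisense gene *4930599N23Rik* covers 127 bases of the latter. The motifs searched on both strands of all 6 windows of 300 bases were a pair of GAAA sites with 2 bases of any kind between them, the STAT-type site TTCNNNGAA and the NF-kB motif. None of these was found in these windows, and they occur in 3.44%, 8.30% and 8.46% of the 32851 windows searched. This says only that these letters are not in these windows, which do not all lie before the GENCODE start of the gene. Annotated exons cover all 250 bases before the RefSeq start in the *Cd38* window and 179 in that of *Dtx3l*. The *Nampt* window, from 32820085, lies inside the GENCODE gene, which starts at 32819545.

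The libraries held 19316691 to 24977356 reads in genes. *Rasgef1b* averaged 2072 ± 88.2 normalized counts in untreated WT and 609 ± 77.4 in untreated KO BMDMs, and 12084 ± 407 and 3862 ± 297 after LPS (SD, n = 3 each). Per the study, the deletion removes only part of the exons of *Rasgef1b*, so reads from its other exons can still be counted. The study did not detect the mRNA in KO BMDMs by quantitative PCR (RT-qPCR). All 7 macrophage markers had a mean of at least 10 in every group, and the summed B cell, T and NK cell, mast cell and fibroblast markers reached at most 29.0 in any library, with *Ncr1* at 0 in all. A ribosomal RNA gene model (ENSMUSG00000106106) took 5.06% of the reads of replicate 2 of the untreated KO group, against 0.0398% to 0.0874% in the other libraries. The replicates are stated to be biological.

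LPS raised 9 of the 10 genes in WT and in KO BMDMs, and *Parp1* moved the other way. A gene was called when its Benjamini-Hochberg adjusted p in limma was under 0.05 and it changed at least 2-fold, on the scale of log2 of the normalized count plus 1. Of all genes tested, 17.1% were called higher after LPS in WT and 17.3% in KO BMDMs. The 8 genes other than *Cd38* rose 2.84-fold to 22.0-fold in WT and 2.74-fold to 26.6-fold in KO BMDMs, and *Cd38*, whose untreated level rests on few reads, is given on its own. The 9 genes had adjusted p in limma of at most 9.44e-07 in WT and 3.66e-05 in KO BMDMs. In every one of the 9, all LPS-treated libraries lay above all untreated ones, as they did for 38.3% of all genes tested in WT and 38.4% in KO BMDMs. The median log2 fold change of the 10 genes was 3.30 in WT and 3.45 in KO BMDMs, against -0.02 and -0.01 over all genes tested. The 10 genes were chosen with earlier results of these data known, so their contrasts with all genes are no test. The summed dendritic cell markers, 5 of 5 measured, also went from 8.30 to 18.3 in untreated to 54.9 to 103 in LPS-treated libraries. Only 1 of these 5 averaged at least 10 in LPS-treated WT and 2 in LPS-treated KO BMDMs. The only one called was *Xcr1*, with log2 fold changes of 3.67 in WT and 4.19 in KO BMDMs. In both untreated groups 0 of these markers averaged at least 10. *Xcr1* thus reached the level tested only through the LPS-treated libraries, and its fold changes rest on few reads. The summed neutrophil markers, 8 of 8 measured, were at 688 to 1099 in untreated and 770 to 1587 in LPS-treated libraries. The part of these markers in the rises was not tested. In bulk RNA, fewer cells of a type and less RNA per cell cannot be told apart.

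**Figure D1:**
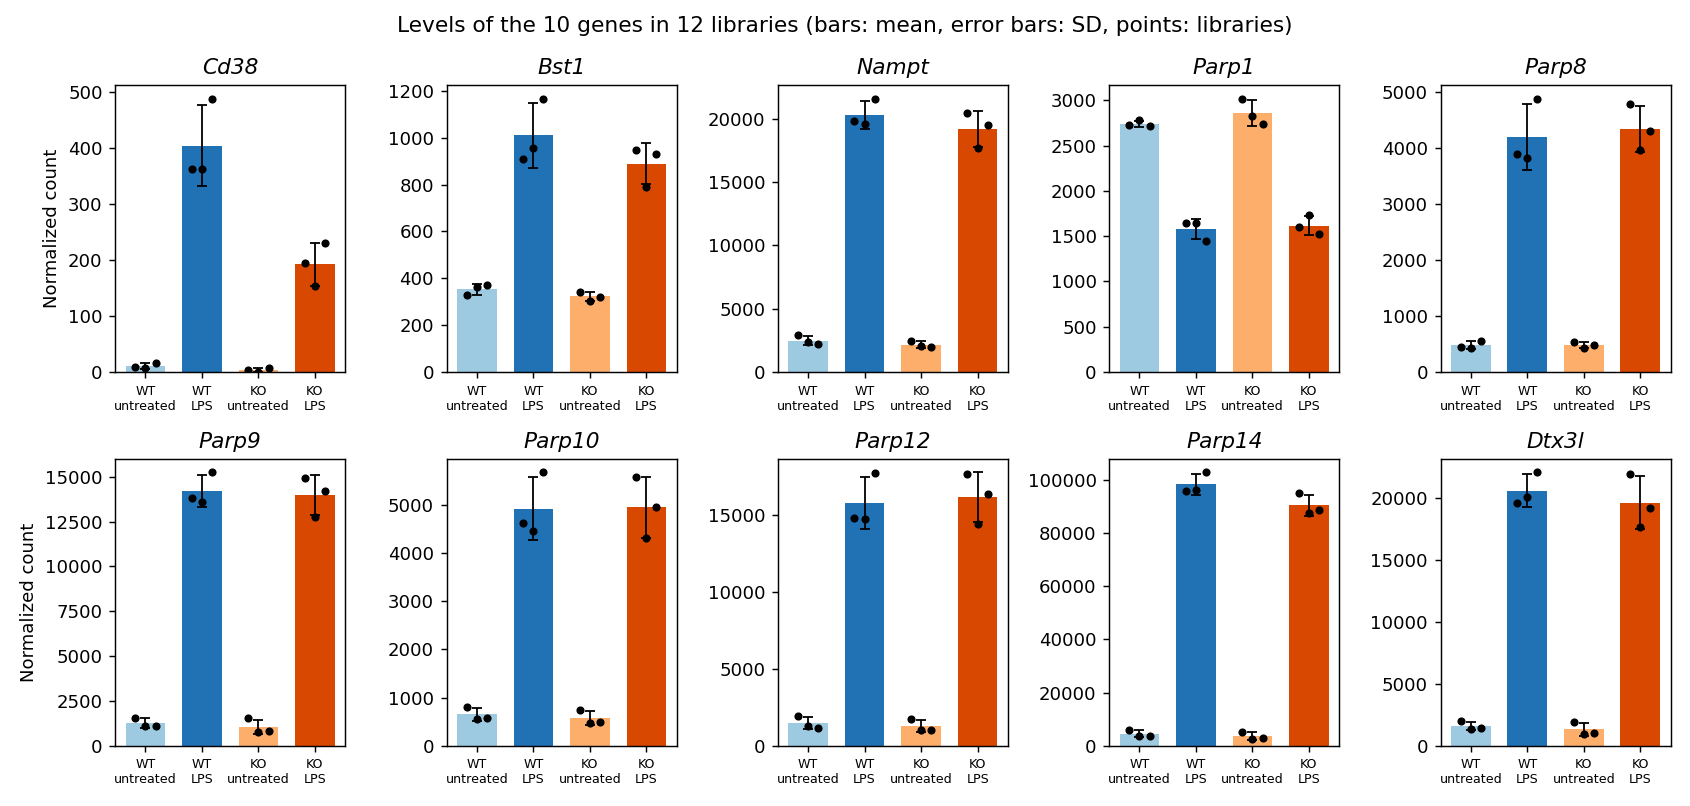
Normalized counts (y axis, linear, own scale per panel) of the 10 genes in untreated and LPS-treated WT and KO BMDMs (x axis); bars are means of 3 libraries, error bars SD, points libraries. In 9 panels every LPS-treated library lies above every untreated one, and in the *Parp1* panel every LPS-treated library lies below.

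*Cd38*, the main NAD-splitting enzyme of the cell surface, was the least abundant of the 10 genes in every group. Its normalized counts were 8.30, 6.60 and 16.7 in the untreated WT libraries, from 12, 10 and 21 reads. After LPS they were 362, 363 and 488 in WT and 195, 153 and 230 in KO libraries. The untreated KO libraries had 2.82, 0 and 6.44, from 4, 0 and 9 reads. All LPS-treated libraries thus lay far above all untreated ones. The log2 fold change was 5.22 (SE 0.30, adjusted p = 2.83e-07 in limma) in WT and 5.97 (SE 0.64, adjusted p = 3.66e-05 in limma) in KO BMDMs. In KO BMDMs the gene reached the level tested, a mean of 10, only through the LPS-treated libraries. The rise there was 62.6-fold, but 25.5-fold with a pseudocount of 5, 35.8-fold without untreated KO replicate 2, which had 0 reads, and 97.7-fold without untreated KO replicate 3, so its size is not well determined.

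*Bst1*, the neighbouring gene of the same enzyme family, was measured at 328, 362 and 373 in untreated and 909, 955 and 1167 in LPS-treated WT libraries. In KO BMDMs the counts were 344, 304 and 321 without and 949, 788 and 931 with LPS. Again the groups did not overlap. The rise, 2.84-fold in WT (SE 0.10 on the log2 scale) and 2.74-fold in KO BMDMs (SE 0.09), was the smallest among the 9 genes.

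*Nampt*, the salvage enzyme that restores NAD, went from 2889, 2343 and 2202 in untreated to 19830, 19547 and 21585 in LPS-treated WT libraries. In KO libraries it went from 2450, 2088 and 1967 to 20446, 17658 and 19495. The groups did not overlap, and the log2 fold change was 3.04 (SE 0.10) in WT and 3.15 (SE 0.09) in KO BMDMs.

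*Parp14*, which codes for a large PARP with macrodomains that bind ADP-ribose, reached the highest level. Its untreated WT libraries held 6050, 3853 and 3818 and its LPS-treated WT libraries 96018, 96206 and 102880. The KO libraries held 5308, 2458 and 3002 without LPS and 94939, 87754 and 88699 with it. The log2 fold change was 4.46 (SE 0.16, adjusted p = 1.07e-08 in limma) in WT and 4.73 (SE 0.24, adjusted p = 3.17e-07 in limma) in KO BMDMs.

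The partners *Parp9* and *Dtx3l* rose side by side. *Parp9* had 1576, 1123 and 1098 in untreated and 13809, 13577 and 15249 in LPS-treated WT libraries, and 1524, 776 and 839 against 14960, 12756 and 14228 in KO libraries. *Dtx3l* had 2011, 1378 and 1457 against 19608, 20120 and 22086 in WT, and 1922, 957 and 1068 against 21950, 17700 and 19230 in KO libraries. The log2 fold change in WT was 3.51 (SE 0.13) for *Parp9* and 3.69 (SE 0.13) for *Dtx3l*, and in KO BMDMs 3.80 (SE 0.22) and 3.96 (SE 0.23). The ratio of the normalized count of *Dtx3l* to that of *Parp9* was 1.23 to 1.33 in untreated WT and 1.42 to 1.48 in LPS-treated WT libraries. In KO libraries it was 1.23 to 1.27 without and 1.35 to 1.47 with LPS, so that the ratio was higher in all 6 LPS-treated than in all 6 untreated libraries. The stretch that the exons share enters both counts to an unknown extent.

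The 3 other PARP genes that rose code for enzymes that add single ADP-ribose units. *Parp12* had 1911, 1296 and 1164 in untreated and 14809, 14724 and 17689 in LPS-treated WT libraries, with a log2 fold change of 3.46 (SE 0.16). Its KO libraries went from 1718, 1025 and 1041 to 17601, 14393 and 16365, a log2 fold change of 3.71 (SE 0.19). *Parp10* averaged 652 ± 137 in untreated and 4916 ± 658 in LPS-treated WT BMDMs, and 566 ± 145 and 4948 ± 633 in KO BMDMs (SD, n = 3 each). *Parp8* averaged 475 ± 69.6 and 4194 ± 592 in WT, and 479 ± 59.1 and 4340 ± 411 in KO BMDMs. Their log2 fold changes in WT were 2.92 (SE 0.14) and 3.14 (SE 0.12), and in KO BMDMs 3.15 (SE 0.17) and 3.18 (SE 0.10), with no overlap between untreated and LPS-treated libraries.

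*Parp1*, the PARP of the DNA damage response, had 2728, 2781 and 2722 in untreated and 1642, 1648 and 1450 in LPS-treated WT libraries. The KO libraries had 3020, 2825 and 2738 without and 1600, 1731 and 1520 with LPS. Every LPS-treated library was below every untreated one, as for 38.6% of all genes tested in WT and 38.1% in KO BMDMs. The gene fell by 0.80 on the log2 scale in WT (SE 0.06, adjusted p = 2.58e-06 in limma) and by 0.82 in KO BMDMs (SE 0.07, adjusted p = 8.00e-06 in limma), which is under the 2-fold limit of a call. At an adjusted p under 0.05 alone, 36.6% of all genes tested were lower in WT and 35.7% in KO BMDMs. Under quantile normalization the fall of *Parp1* passed 2-fold, at -1.36 in WT and -1.38 in KO BMDMs.

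**Figure D2:**
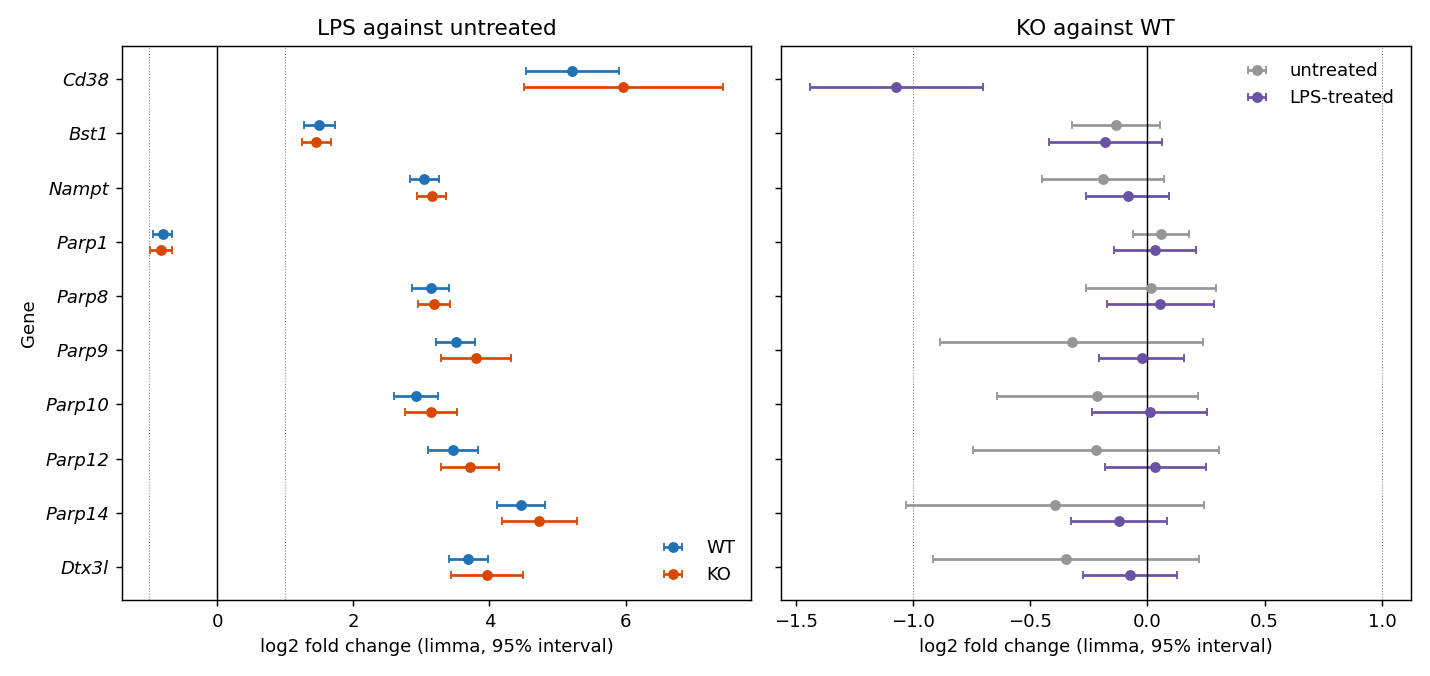
Log2 fold changes from limma (x axis) of the 10 genes (y axis) with 95% intervals, for LPS against untreated BMDMs (left, WT blue, KO orange) and KO against WT (right, untreated grey, LPS-treated purple); dotted lines mark a 2-fold change. The 9 rises lie between 1.46 and 5.97, and on the right the interval of *Cd38* after LPS (-1.44 to -0.70) is the only one that leaves out 0; untreated *Cd38* was below the level tested.

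The order of the genes changed with LPS when levels were compared per kb of exon. In untreated WT BMDMs *Parp1* came first with a mean of 518 normalized counts per kb, followed by *Parp14* with 491 and *Nampt* with 490, and these neighbours overlapped between libraries. After LPS *Parp14* stood apart with 10570 per kb in WT. It was followed by *Nampt* with 4021, *Parp12* with 3940 and *Dtx3l* with 3599, of which neighbours overlapped, and then by *Parp9* with 2917 and *Parp10* with 1150. *Parp8* had 472, *Bst1* 305, *Parp1* 299 and *Cd38* 104 per kb, and only *Bst1* and *Parp1* overlapped among them. In LPS-treated KO BMDMs the order was the same apart from exchanged places of *Nampt* and *Parp12*, whose ranges overlapped, and of *Bst1* and *Parp1*.

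Between the genotypes, *Cd38* was the gene that differed after LPS. The 3 KO libraries, at 195, 153 and 230, were all below the 3 WT libraries, at 362, 363 and 488, with means of 193 ± 38.6 and 404 ± 72.7 (SD, n = 3 each). Of all genes tested, 7.73% showed such a separation in that direction. The log2 fold change of KO against WT was -1.07 (SE 0.17, 95% interval -1.44 to -0.70, adjusted p = 0.0198 in limma). Of all genes tested in this comparison, 0.064% were called lower. The call is not firm. It was lost without any one of the 3 WT libraries (replicate 1, log2 fold change -1.14, adjusted p = 0.0599; replicate 2, -1.14 and 0.0773; replicate 3, -0.93 and 0.0533) and, on the fold limit, without KO replicate 2 (-0.92, adjusted p = 0.0378), all in limma. Without a trend in the variance the adjusted p was 0.193 and with all 12 libraries in one fit 0.438 in limma, whereas the counts gave 0.0139 in edgeR and 6.34e-07 in DESeq2. In the fit of 12 libraries the log2 fold change was also -1.07, with an SE of 0.55. The spread of the untreated libraries, with few *Cd38* reads, enters that SE. The direction was lower in each of these fits. The study itself called *Cd38* lower in LPS-treated KO BMDMs from these libraries. Its results also list the gene among those significantly lower by RT-qPCR in fresh BMDMs. The summed macrophage markers, 7 of 7 measured, ranged from 250707 to 314017 in LPS-treated KO and from 314337 to 363940 in LPS-treated WT libraries. Taken singly, the 7 markers went different ways between LPS-treated KO and WT BMDMs. Their log2 fold changes ran from -0.33 to 0.24, with a median of -0.06, and 0 were called. The part of these markers in the *Cd38* result was not tested.

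**Figure D3:**
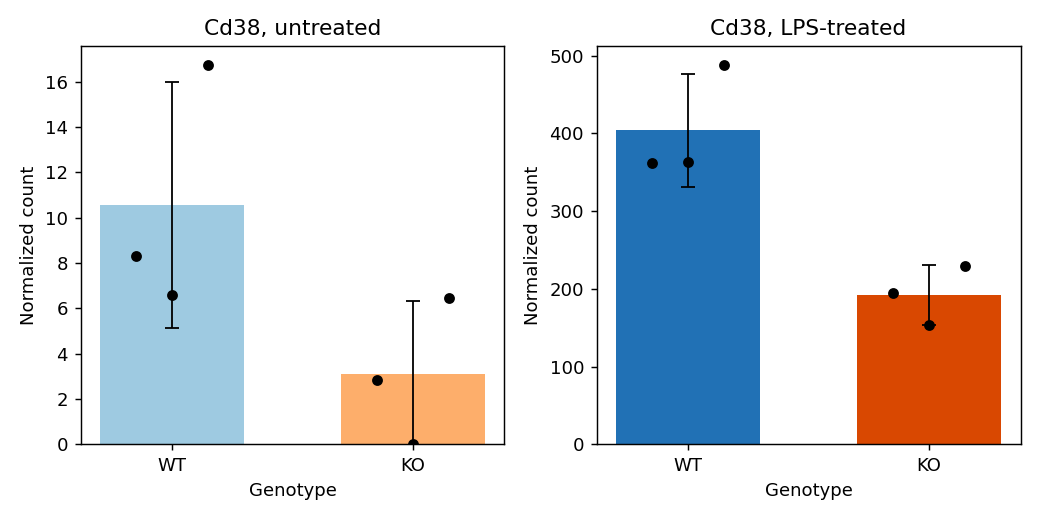
Normalized counts of *Cd38* (y axis, linear, a different scale in each panel) in WT and KO BMDMs (x axis), untreated at left and LPS-treated at right; bars are means, error bars SD, points the 3 libraries of a group. In both panels the 3 KO libraries lie below the 3 WT libraries, at 0 to 6.44 against 6.60 to 16.7 untreated and at 153 to 230 against 362 to 488 after LPS.

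Without LPS, *Cd38* was below the level at which genes were tested, a mean of 10 normalized counts. The WT libraries held 43 reads of it in all and the KO libraries 13, a ratio of KO to WT of 0.320 after scaling, with a 95% counting interval of 0.158 to 0.606 that leaves out the spread between libraries. With the level filter removed, the log2 fold change was -1.82 and the adjusted p 0.429 in limma. The libraries did not overlap, as was the case in the lower direction for 7.98% of all genes tested.

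For the other 9 genes no difference between the genotypes was called in either condition. In untreated BMDMs, where 0.193% of all genes tested were called, the log2 fold changes ran from -0.39 for *Parp14* (95% interval -1.03 to 0.24) to 0.06 for *Parp1* (-0.06 to 0.18), and 7 of 9 were negative. None of the 9 had an unadjusted p under 0.05 in limma, nor was any called by edgeR or DESeq2. After LPS, where 0.232% of all genes tested were called, the 9 ran from -0.18 for *Bst1* (95% interval -0.42 to 0.06) to 0.05 for *Parp8* (-0.17 to 0.28). *Parp14* was lower in all 3 KO libraries than in all 3 WT libraries, a separation that 7.73% of all genes showed in that direction, but by -0.12 (95% interval -0.33 to 0.08, adjusted p = 0.717 in limma). The intervals leave out 2-fold differences for all 9 genes after LPS, and for all but *Parp14* in untreated BMDMs.

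The response to LPS was not shown to differ between the genotypes for any of the 10 genes. The interaction of genotype and LPS gave 0 calls in limma, edgeR and DESeq2, none with an unadjusted p under 0.05, and 0.00787% of all genes tested were called. For *Cd38* it was 0.75 (SE 0.78, 95% interval -0.94 to 2.44, adjusted p = 0.999 in limma), an interval wide enough to hold large differences in either direction. For the other 9 genes it lay between -0.05 for *Bst1* and 0.30 for *Parp9*.

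The untreated libraries varied in step for part of the genes. *Parp9*, *Parp10*, *Parp12*, *Parp14*, *Dtx3l* and *Nampt* were highest in replicate 1 of the untreated WT and of the untreated KO group. The coefficient of variation in untreated BMDMs was largest for *Parp14*, at 28.0% in WT and 42.2% in KO libraries, and smallest for *Parp1*, at 1.19% and 5.04%, leaving out *Cd38* with its few reads. After LPS that of *Parp14* was 3.97% in WT and 4.32% in KO libraries. The summed level of 16 other interferon-stimulated genes moved along, with 27357, 13743 and 10536 in the untreated WT and 20598, 7684 and 7720 in the untreated KO libraries, and its part in the spread was not tested. Replicate 2 of the untreated KO group, the library with the ribosomal RNA reads, had the lowest *Parp9*, *Parp10*, *Parp12*, *Parp14* and *Dtx3l* of the 12. Without it, LPS still raised 9 of the 10 genes in KO BMDMs.

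**Figure D4:**
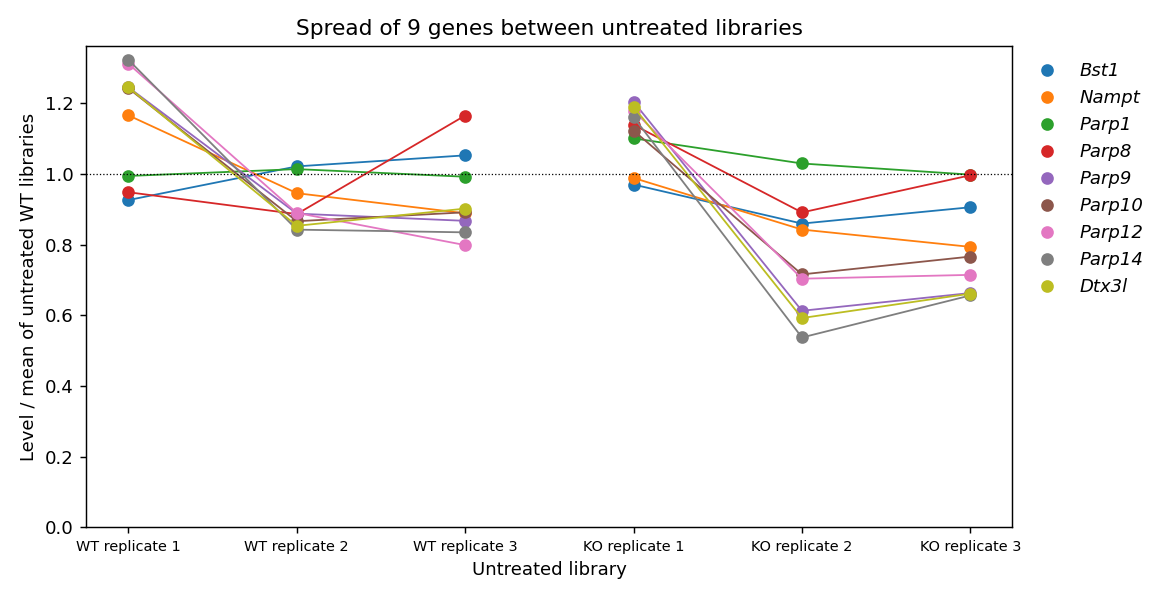
Level of 9 genes (all but *Cd38*) in the 6 untreated libraries (x axis), divided by the mean of the untreated WT libraries (y axis, linear); lines join the libraries of a genotype and imply no order. *Parp14* (grey) spreads from 3818 to 6050 normalized counts in WT and from 2458 to 5308 in KO libraries, whereas *Parp1* (green) stays between 2722 and 3020.

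Other genes of NAD and ADP-ribose metabolism gave a mixed response to LPS. Beside the shares called higher given above, 16.9% of all genes tested were called lower in WT and 16.6% in KO BMDMs. Of 10 other PARP family genes 5 rose and 1 fell in WT and in KO BMDMs. *Tiparp*, which codes for a PARP that dampens aryl hydrocarbon receptor signalling, rose by 3.40 (SE 0.07), *Parp11* by 3.28 (SE 0.12) and *Zc3hav1*, the antiviral protein ZAP, by 2.15 (SE 0.06) on the log2 scale in WT. *Parp16*, whose product sits in the endoplasmic reticulum, fell by 3.07 (SE 0.23). The median over this list was 0.84 in WT, below the 3.30 of the 10 genes. Both sets were chosen with earlier results of these data known, so this contrast is no test.

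The list of other genes of NAD synthesis and phosphorylation gave no call upward, whereas the kynurenine pathway, listed apart, did. Of 12 other genes of NAD synthesis and phosphorylation, 8 were tested, none was called higher and 3 were lower in WT and in KO BMDMs: *Nmrk1*, a nicotinamide riboside kinase, with a log2 fold change of -1.43, the mitochondrial NAD kinase *Nadk2* with -1.18 and the adenylyltransferase *Nmnat3* with -1.15 in WT. *Nmnat1* and *Nadk*, picked out after their values were seen, were each 0.58 higher in WT, past the adjusted p but under the fold limit. Of the kynurenine pathway, which breaks down tryptophan and can lead to NAD, 4 of 8 genes were tested and 3 rose, *Ido2* by 5.15 (SE 0.33), *Kynu* by 2.76 (SE 0.39) and *Kmo* by 1.40 (SE 0.40) in WT. *Ido2* and *Kynu* reached the level tested only through the LPS-treated libraries, with 4 and 24 reads in the 3 untreated and 147 and 93 in the 3 LPS-treated WT libraries, so their fold changes rest on few reads. Both gene models of *Nnt*, the mitochondrial transhydrogenase, were below the level tested, with group means of at most 5.17 normalized counts.

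Among the other users of NAD, the 7 tested of 8 sirtuin and *Sarm1* genes held 1 rise, *Sirt1* at 1.02 (SE 0.09) in WT. In KO BMDMs *Sirt1* rose by 1.03, and *Sirt4* at -1.13 and *Sirt5* at -1.16 were called lower, against -0.84 and -0.75 in WT; *Sirt4* and *Sirt5* were singled out after their values were seen. Of the genes that remove ADP-ribose, 5 of 8 listed symbols were tested and *Adprh*, which codes for a hydrolase of ADP-ribosyl-arginine, rose by 1.20 (SE 0.06) in WT. Of 6 calcium channel genes linked to NAD metabolites, 4 were tested and *Tpcn1*, which codes for an endolysosomal channel known to respond to NAADP, fell by 1.62 (SE 0.09). Of 7 partners of PARP1 in DNA repair, *Aplf* fell by 2.46 (SE 0.24). Of the other Deltex ligase genes, 3 of 4 were tested and *Dtx2* rose by 2.88 (SE 0.14). Of the 5 genes of nicotinamide and extracellular nucleotide clearance, the 1 tested was not called. All 16 reference interferon-stimulated genes rose, with a median of 5.52 in WT and 6.39 in KO BMDMs. Of the genes of these lists 0 were called between the genotypes or for the interaction by limma, edgeR or DESeq2. At an unadjusted p under 0.05 in limma there were 2 of 64 in untreated BMDMs, 7 of 65 after LPS and 1 of 65 for the interaction, against 10.8%, 10.6% and 4.22% of all genes tested.

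**Figure D5:**
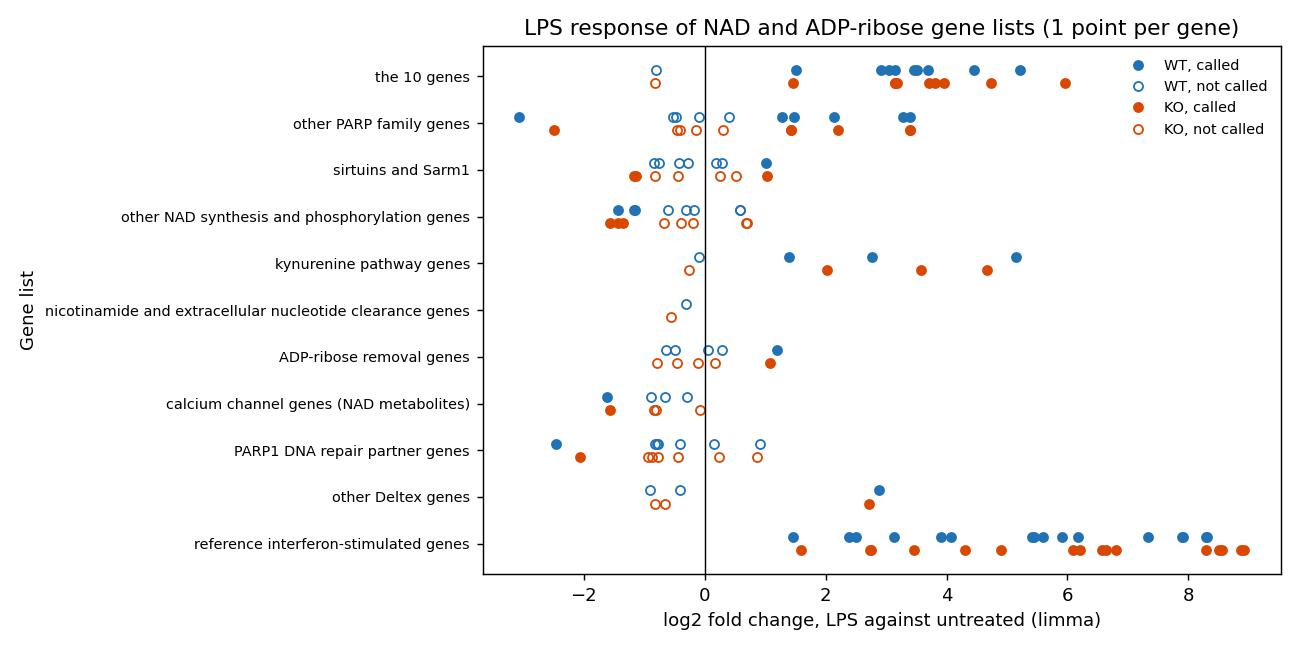
Log2 fold changes from limma for LPS against untreated BMDMs (x axis) by gene list (y axis), 1 point per gene tested in WT (blue) or KO (orange); filled points were called. The 10 genes lie to the right apart from *Parp1* at -0.80 in WT, whereas the list of other NAD synthesis and phosphorylation genes lies between -1.57 and 0.70 over both genotypes.

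The genes whose log2 levels followed *Cd38* most closely over the 12 libraries were *Aoah*, an enzyme that inactivates LPS, with Pearson's r = 0.993, *Fcgr2b*, the inhibitory Fc gamma receptor, with 0.991, *Dnajb5* with 0.991, *Wfdc17* with 0.990 and *Gm28913* with 0.990. Of 12710 genes ranked, 701 had r above 0.95, and all share the split between untreated and LPS-treated libraries. *Fcgr2b* averaged 15795 normalized counts in LPS-treated WT and 11008 in LPS-treated KO BMDMs, and *Aoah* 4068 and 3090. *Wfdc17* averaged 5239 and 4052, *Dnajb5* 395 and 357, and *Gm28913* 280 and 246. These genes were picked for likeness to *Cd38* over both genotypes, so lower KO means are part of the choice. No test between the genotypes is given for them.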

How the data were processed

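Per the labels and the study's methods, paired-end reads of poly(A) RNA were demultiplexed with bcl2fastq (2.17), trimmed with Trimmomatic (0.39), aligned to GRCm38 with STAR (2.7.4a) and assigned to genes by featureCounts (Subread 2.0.1). The deposited signal values are counts divided by 1 DESeq2 (1.32.0) size factor per library, and 100% of them are whole reads after rescaling (tolerance 1e-06). For each comparison limma (3.58.1) in R (4.3.3) took log2(normalized count + 1) from the libraries of the 2 groups, a variance trend and genes averaging at least 10, and adjusted p by Benjamini-Hochberg across those genes. The interaction used 12 libraries, without a fold limit. The fits were run on simulated counts with the same spread setting for every gene. That check does not show how they perform at the spread of these libraries. The members and gene lists were chosen with earlier results of these data known. Genes named beside the 10 are, per list, those called between genotypes and up to 4 called genes with the largest LPS change in WT, the 5 most like *Cd38*, *Rasgef1b* and *Nnt*, and the text says where a gene was picked after its values were seen. Whether equal replicate numbers pair untreated with LPS-treated libraries of a genotype is not given, and the study compared groups unpaired. Deviations from group means have a Pearson correlation of 0.33, 0.19 and 0.24 for equal numbers in WT, and of 0.29, 0.28 and 0.17 in KO. For unequal numbers within a genotype it was -0.24 to 0.01. Libraries of different genotypes, which cannot share a mouse, reached 0.27, so these values do not settle the pairing. Positions come from GENCODE vM21. edgeR (4.0.16), DESeq2 (1.42.0) and other settings were alternatives. Intervals on reads cover counting error only.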

Additional observations from a re-analysis of the deposited data

How the results depend on the processing

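The 9 rises after LPS were called in WT and in KO BMDMs under every alternative: pseudocounts of 0.5 and 5, all genes or only those averaging 50 and more, quantile normalization, upper quartile scaling, no variance trend, edgeR, DESeq2, the replicate block, all 12 libraries in one fit, and each library left out. Scaling by the total of reads was not among them, and the fold-limit calls of *Bst1* and *Parp1* may differ on that scale. In reads, *Bst1* went from 474, 548 and 468 in untreated to 646, 700 and 839 in LPS-treated WT libraries. *Parp1* went from 3942, 4213 and 3417 to 1167, 1208 and 1042 reads. These libraries held 20774591 to 24977356 and 19316691 to 20300050 reads in genes. Calls on shares of reads were not tested. Upper quartile scaling shifted the median of all genes by 0.30 in WT and 0.28 in KO BMDMs. *Parp1* was lower throughout, at -0.50 and -0.54 under that scaling, and the number of the 10 genes called lower after LPS was 1 under quantile normalization and 1 without a fold limit, in each genotype, in place of 0. Between the genotypes after LPS the number called was 0 without a variance trend and 0 with all 12 libraries in one fit, in place of 1, and 0 to 1 with 1 library left out. The gene concerned is *Cd38*, whose log2 fold change ranged from -1.21 to -0.92 over 17 alternatives and was called in 11 of them. The causes were not tested. The replicate block, which takes equal numbers within a genotype as pairs, left 9 genes called higher after LPS in each genotype. Between the genotypes the numbers do not pair (r = -0.20, -0.04 and 0.06 between LPS-treated WT and KO libraries of the same number), so the call of *Cd38* with the block there (adjusted p = 0.00782 in limma) is no paired test, and without it *Cd38* was called in 10 of 16 alternatives. A block within each genotype, added after seeing the data, gave 0 interaction calls. Differences between genotypes and interactions that were not called changed sign in 31 single values. Of the 10 genes, depth limits untreated *Cd38* most, with 0 to 21 reads per library, and among the genes of the lists it limits untreated *Ido2* and *Kynu* and both *Nnt* models.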
